A study of Mus musculus with 17 samples.

Results

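The comparison set the forestomach of mice given benzo(a)pyrene at 75 mg/kg body weight per day, the highest dose of the study, against that of control mice given the olive oil vehicle. Samples were chosen by their titles, 4 labelled 75 mg/kg (replicates 17 to 20) and 5 labelled as control (replicates 1 to 5), which makes 9 of the 17 arrays. All animals were male MutaMouse aged 24 to 26 weeks, a transgenic line that carries a bacterial lacZ reporter for scoring mutations, and were kept singly in an isolator. Benzo(a)pyrene dissolved in olive oil, or olive oil alone, was given by gavage daily for 28 days, and forestomachs were collected 72 hours later. The remaining arrays were 4 at 25 mg/kg and 4 at 50 mg/kg. RNA came from random sections of whole forestomach, so epithelium, muscle wall, nerves and immune cells were measured together. Each array carried RNA of 1 animal in Cy5 and the same mouse reference RNA, pooled from cell lines, in Cy3, and every value below is log2 of Cy5 over Cy3. Such a value is relative to the reference for that gene and gives no order of abundance between genes.

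Benzo(a)pyrene is a polycyclic aromatic hydrocarbon of soot, tar and grilled food. It binds the aryl hydrocarbon receptor, which switches on enzymes such as Cyp1a1 that oxidise it, and the diol epoxides made on the way form bulky adducts on DNA that can activate p53. The rodent forestomach is a pouch lined by stratified squamous epithelium, and it is a known site of tumours after oral dosing with this compound.

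The arrays were alike in the share of usable spots but not in Cy5 brightness. Between 41.2% and 52.0% of spots were well above background in Cy5, and 0.339% to 0.558% of spots were left out as outliers. The median Cy5 spot signal was 75.5 to 89 in the controls and 85 to 96 in the treated arrays. The median Cy5 background was 64 to 68 and 68 to 74.5. On each slide the treated arrays were higher than the controls in both, and the part of this in the results was not tested. The squamous markers Krt5 (3.44 to 3.86) and Lor (7.03 to 8.30) were well above background on all 9 arrays. Each of the 3 slides held both groups, with controls 1 and 2 and replicate 17 on the first slide, controls 3 and 4 and replicates 18 and 19 on the second slide, and control 5 and replicate 20 on the third slide. Control 2 stood apart in immune cell genes: its B cell and plasma cell list lay 2.28 above the control mean on the log2 scale, against -1.13 to -0.13 in the other controls, and its MHC class II list 1.89 above it, against -0.52 to -0.39. Counts for the immune gene lists that moved without control 2 are given both ways, and in such bulk samples fewer cells of a type and less RNA per cell cannot be told apart.

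In all, 236 of 21382 genes (1.10%) differed between the groups at an adjusted p under 0.05 by limma over all genes. Of these, 191 were higher (0.893%) and 45 lower (0.210%) at 75 mg/kg. Rises of at least 2-fold were seen for 117 genes, of at least 4-fold for 24 and of at least 8-fold for 10, whereas 13 genes fell by at least 2-fold and 1 by at least 4-fold. For 13 of the higher genes no control was well above background, so the fold that places them in these counts is not exact. The 4 treated arrays lay wholly to 1 side of the 5 controls for 706 genes (3.30%), and for 219 of the 236. Within each of the 3 slides, all 191 higher genes were higher and all 45 lower genes lower than the controls of that slide. The genes were chosen on these same arrays, so this agreement follows largely from the choice and is no replication. The third slide held 1 array of each group. With slide as a block 330 genes were higher and 94 lower, and these included all 236. Centring each array on its median in place of loess gave 142 higher and 3 lower genes, so that 97.9% of the calls were rises against 80.9%, and moved the median of all genes from -0.01 to 0.19. The counts also moved with single arrays: without control 1, 3 or 4 there were 124, 130 and 113 higher and 19, 27 and 16 lower genes, and without replicate 17, 18 or 20 there were 100, 105 and 105 higher and 19, 17 and 25 lower.

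**Figure D1:**
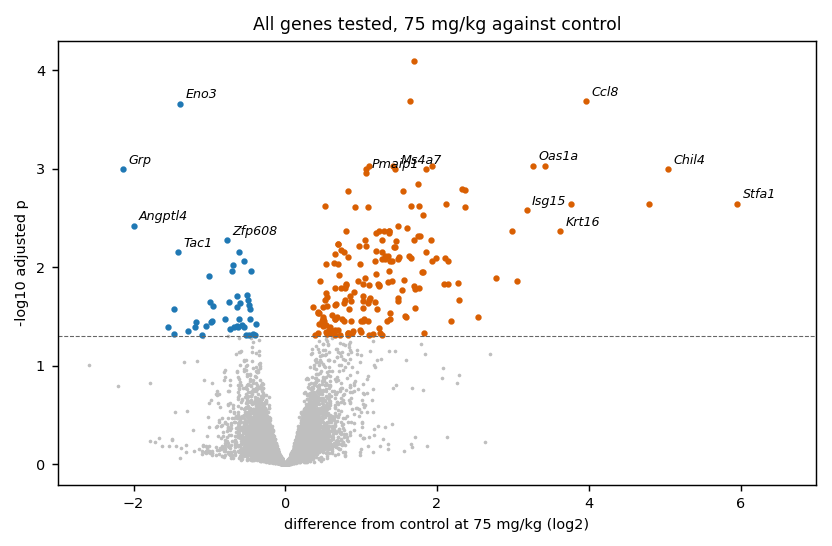
Difference between 75 mg/kg and control (log2, horizontal axis) against −log10 of the adjusted p (vertical axis) for all 21382 genes tested. Each point is a gene, with the 191 higher genes in orange, the 45 lower genes in blue, and the dashed line at an adjusted p of 0.05. Stfa1 at 5.96 lies farthest to the right and Grp at -2.14 farthest to the left of the blue points, and for 13 of the orange points, Chil4 among them, no control was well above background, so that their horizontal position is not exact.

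Stfa1 had the largest measured rise. Stefins are small inhibitors of cysteine proteases. Of the 9 listed inhibitors measured, 4 rose and 0 fell, where 0.893% of all genes tested rose. Their median change was 2.29 against -0.01 over all genes. Stfa1 read 0.32, 0.67, 0.33, 0.59 and 0.55 in controls 1 to 5 and 6.99, 6.26, 4.15 and 8.42 in replicates 17 to 20. The controls were close together and replicate 19 was the lowest of the treated arrays, still far above them. Stfa1 differed by 5.96 ± 0.85 (standard error of the fit here and below, n = 4 and 5, adjusted p = 0.00227), and 3 of 5 control arrays were well above background. Stfa2 lay between 1.02 and 1.41 in the controls and at 4.62, 5.93, 3.15 and 5.88 in the treated arrays, a difference of 3.76 ± 0.53. Stfa2l1 lay between 0.67 and 0.93 in the controls and at 4.01, 5.11, 2.74 and 5.06 in the treated arrays. The stefin-like Gm21944 rose by 2.99 ± 0.47 (adjusted p = 0.00429). All 4 calls held in every fit without 1 array. Outside the A-type stefins, Cst6 differed by -0.17 and Cst3 by -0.07, and neither passed. Stefins, Sprr2 genes, defensins, H2 class I genes, the 2 interferon GTPase families, Oas1 genes, Serpinb3 genes and Gsta genes are families of close copies, so which copy a probe read is uncertain.

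Of 4 stress keratins 1 rose and 0 fell, where 0.893% of all genes tested rose. Their median was 2.07, and 3 rose with slide as a block. Krt16, a keratin of wounded and fast-growing squamous epithelium, rose by 3.62 ± 0.57 (adjusted p = 0.00429). It read 2.12, 0.22, 0.56, 0.48 and 1.91 in the controls and 5.42, 4.76, 3.29 and 5.24 in the treated arrays, so the controls themselves spread over almost 2 log2 units without reaching the lowest treated array. Its partners Krt6a (2.08 ± 0.56, adjusted p = 0.104) and Krt6b (2.06 ± 0.58, adjusted p = 0.134) did not pass, and both passed with slide as a block (adjusted p = 0.0264 and 0.0129). Krt6a lay between -0.01 and 0.52 in the controls and at 2.32, 2.78, 0.84 and 3.13 in the treated arrays. Of 16 keratins of the resting epithelium, 0 passed and the median was -0.04. Krt5, the basal keratin, differed by -0.06 ± 0.14 (0.53 ± 0.37 at another probe), and Krt14, its partner, by -0.02 ± 0.19. With median centring all 16 of these keratins had a positive sign, with a median of 0.25 against 0.19 over all genes.

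The outermost layer of the epithelium is armoured by the cornified envelope. Small proline-rich proteins, which are crosslinked into the envelope of the outer layer, had 5 of 13 members higher and 0 lower, where 0.893% of all genes tested rose. Their median was 0.97, and 8 were higher with slide as a block. Sprr1b read 2.45, 1.12, 2.35, 1.02 and 3.94 in the controls and 5.29, 5.26, 3.86 and 6.48 in the treated arrays. It rose by 3.05 ± 0.58 (adjusted p = 0.0138), with control 5 just above replicate 19. Sprr2f rose by 2.78 ± 0.52, Sprr2h by 2.27 ± 0.43, Sprr2g by 2.14 ± 0.38 and Sprr2k by 2.11 ± 0.37. Of 28 other envelope and crosslinking genes, 1 passed and the median was -0.07, as with Lor (loricrin, -0.49 ± 0.22, adjusted p = 0.448) and Sbsn (suprabasin, -0.31 ± 0.13, adjusted p = 0.407). The member that passed, Tchh (trichohyalin), was not well above background in any control, and its call was lost in all 9 fits without 1 array (adjusted p up to 0.151). The desmosomal cadherins Dsc2 and Dsg1a rose by 1.92 ± 0.31 and 1.69 ± 0.33 among 21 junction genes whose median was 0.40. The calls of Sprr2f and Sprr2h were lost without replicate 17, 18 or 20, and that of Dsg1a without replicate 20 (adjusted p up to 0.0659). That of Sprr1b was lost without replicate 17 or 20 and with only control and 75 mg/kg arrays fitted.

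**Figure D2:**
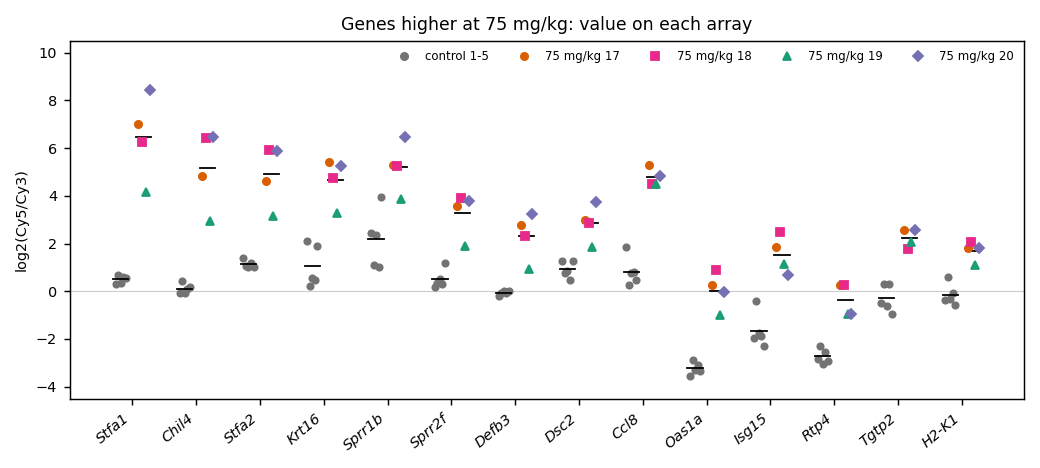
Log2 of Cy5 over Cy3 (vertical axis) on each array for 14 genes that rose at 75 mg/kg, with points spread sideways for legibility. Grey points are the 5 controls, coloured symbols the 4 treated arrays, and black lines the group means. Replicate 19 is the lowest treated array for Stfa1 (4.15), Chil4 (2.93) and Krt16 (3.29), and control 5 of Sprr1b (3.94) lies above replicate 19 (3.86).

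Secreted defence proteins of the epithelium rose in part. Of 26 S100, defensin and antimicrobial genes, 4 rose and 0 fell, with a median of 0.32, where 0.893% of all genes tested rose. Chil4, a chitinase-like protein, read -0.06, 0.41, -0.08, 0.10 and 0.18 in the controls, none of them well above background, and 4.81, 6.41, 2.93 and 6.47 in the treated arrays. The beta-defensin Defb3 was likewise not well above background in any control. It read 2.76, 2.32, 0.95 and 3.24 in the treated arrays and was at least 3.85-fold higher (adjusted p = 0.00166). S100a7a, a member of the psoriasin family, was at least 1.51-fold higher (adjusted p = 0.00247). Defb14 rose by 1.93 ± 0.34, from 2.55 to 3.89 in the controls to 4.41 to 5.68 in the treated arrays, but differed by only 0.25 with Agilent's processed signals. S100a9, an alarmin also made by neutrophils, differed by 2.26 ± 0.65, short of the threshold (adjusted p = 0.148; 0.0144 with slide as a block). Control 2 read 6.75 for S100a9, inside the treated range of 5.37 to 7.38.

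Of 29 epidermal proteases and serpins, 4 rose and 0 fell, where 0.893% of all genes tested rose. Serpinb3c, a serpin of squamous cells, was well above background on all arrays, read 5.76 to 6.58 in the controls and 8.51, 8.10, 7.45 and 9.05 in the treated arrays, and rose by 2.12 ± 0.30 (adjusted p = 0.00228). Serpinb3a rose by 1.82 ± 0.27, and both calls were lost when Agilent's processed signals were used. Serpinb3b rose by 1.23 ± 0.28, and the airway-type protease Tmprss11d was at least 1.72-fold higher (adjusted p = 0.0222). The calls of Serpinb3b and Tmprss11d were each lost without at least 1 of controls 1 to 5 or replicates 17, 18 and 20 (adjusted p up to 0.156). Il20ra, a receptor subunit for cytokines that act on keratinocytes, rose by 1.24 ± 0.24 (adjusted p = 0.015; up to 0.0711 without replicate 17 or 20). Of 11 ligands and receptors of the epidermal growth factor family and 14 genes of the interleukin 1 and 36 family, 0 passed, with medians of 0.20 and -0.02.

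Interferon-stimulated and class I genes made up 41 of the 151 higher genes with a symbol. The antiviral, sensor, GTPase and class I lists had 15 of 32, 6 of 19, 9 of 15 and 11 of 21 members higher. The share over all genes tested was 0.893%, and the lists were chosen with earlier results of these data known. Interferons act through the kinases of their receptors on transcription factors, Stat2 and Irf9 among them, that bind the interferon-stimulated response element (ISRE) in promoters of antiviral genes. In promoter windows from 250 bases before to 50 after the gene start, taken from RefSeq (GRCm38.p6), the ISRE letters (GAAA, any 2 bases, then GAAA) were found on either strand for 17 of 31 higher genes of the interferon and class I lists (54.8%). Over all tested genes with a symbol the share was 407 of 10982 (3.71%), and among higher genes in none of those lists it was 3 of 80 (3.75%). A second motif searched in these windows, GAS (TTC, any 3 bases, then GAA), was found for 7 of the 31 genes (22.6%). Its share was 8.54% over all tested genes with a symbol and 11.2% among higher genes in none of those lists. The 31 are those of the 41 with a window in the RefSeq table. The lists name interferon-stimulated genes, so their share describes the lists as much as the rise. It was not computed for list members that did not rise. A gene with several starts was counted when any of them had a match. In the 100 bases before the start, 9 interferon and class I genes hold the letters. Gbp3, among these 9 and not shown, has 2 matches before its first start and 0 before its second. The following lines give that stretch for 5 of the 9, where capitals mark the letters (matches may overlap one another). Stfa1, where the letters were not found in that stretch, is given for comparison.
Oas1a (chr5:120907526-120907625, minus strand): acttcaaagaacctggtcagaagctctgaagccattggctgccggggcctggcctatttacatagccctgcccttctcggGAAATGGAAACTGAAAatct
Isg15 (chr4:156200819-156200918, minus strand): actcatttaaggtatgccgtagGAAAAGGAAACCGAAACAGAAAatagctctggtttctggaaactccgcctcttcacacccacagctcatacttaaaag
Tgtp2 (chr11:49064213-49064312, minus strand): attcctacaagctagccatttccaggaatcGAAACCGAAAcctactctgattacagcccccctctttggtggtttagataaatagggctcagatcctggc
Igtp (chr11:58199456-58199555, plus strand): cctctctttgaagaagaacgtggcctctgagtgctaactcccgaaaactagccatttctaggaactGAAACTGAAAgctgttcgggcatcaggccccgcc
Irgm1 (chr11:48871421-48871520, minus strand): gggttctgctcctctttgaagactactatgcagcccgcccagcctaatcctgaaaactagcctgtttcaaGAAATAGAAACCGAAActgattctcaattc
Stfa1 (chr16:36277048-36277147, plus strand): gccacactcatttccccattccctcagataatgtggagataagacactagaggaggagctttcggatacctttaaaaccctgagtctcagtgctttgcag
A match of letters is a description of the sequence and no evidence of binding.

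Among the antiviral effectors, 15 of 32 rose and 0 fell, with a median change of 0.72. Oas1a, which makes the oligoadenylate signal that activates an RNase, read -3.55, -2.87, -3.31, -3.08 and -3.33 in the controls and 0.24, 0.90, -1.01 and -0.02 in the treated arrays. It rose by 3.26 ± 0.40 (adjusted p = 0.000933), and by 1.78 ± 0.28 at another probe. Isg15, a ubiquitin-like modifier, read -1.94, -0.41, -1.75, -1.88 and -2.28 in the controls and 1.84, 2.47, 1.16 and 0.66 in the treated arrays. Control 2 was the highest control of Isg15, yet below all treated arrays, and the difference was 3.18 ± 0.47 (adjusted p = 0.00263). Rtp4, a chaperone of receptors, rose by 2.37 ± 0.35, from -3.03 to -2.28 in the controls to 0.26, 0.24, -0.96 and -0.95. Bst2, which tethers virus particles to the cell, rose by 1.75 ± 0.23, Ifit3 by 1.55 ± 0.21, Ifit3b by 1.36 ± 0.22 and Parp9 by 1.20 ± 0.19, and these calls held in every fit without 1 array. Replicates 17 and 18 stood highest over the list as a whole, at 1.12 and 0.97 above the control mean, with replicates 19 and 20 at 0.55 and 0.58 and the controls between -0.10 and 0.20. Xaf1, Oasl2, Ifit1, Oas2, Zbp1, Ifi35, Dtx3l and Ifi44 passed over all arrays, but each of these calls was lost without at least 1 of controls 1 to 5 or replicates 17, 18 and 20 (adjusted p up to 0.183). Without control 2, 18 members rose.

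Of 19 sensors of foreign nucleic acid and transcription factors of the pathway, 6 rose and 0 fell, with a median of 0.50 (8 rose without control 2). Ifih1, a sensor of double-stranded RNA, read -0.57 to -0.05 in the controls and 1.27, 1.44, 0.65 and 1.25 in the treated arrays, a rise of 1.42 ± 0.17 (adjusted p = 0.000933). Stat2 and Irf9, which take part in binding the response element, rose by 1.24 ± 0.20 and 1.46 ± 0.24. Dhx58, a related sensor, rose by 0.83 ± 0.14. Nlrc5, the activator of class I genes, rose by 1.93 ± 0.24 (adjusted p = 0.000933), but another Nlrc5 probe read only 0.43 ± 0.12 higher (adjusted p = 0.132 among all probes).

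The interferon-inducible GTPases, large enzymes that attack the vacuoles of intracellular parasites, had 9 of 15 members higher and 0 lower, with all 15 positive and a median of 1.49 (10 were higher without control 2). Tgtp2 read -0.51, 0.32, -0.64, 0.32 and -0.96 in the controls and 2.57, 1.77, 2.06 and 2.56 in the treated arrays, a rise of 2.54 ± 0.55 (adjusted p = 0.0323). Igtp rose by 2.18 ± 0.48, Gbp3 by 1.82 ± 0.34, Iigp1 by 1.80 ± 0.33 and Irgm1 by 1.76 ± 0.34, and the other 4 (Gbp2, Gbp4, Gbp5 and Gbp7) by 1.04 to 1.49. For 12 of the 15 the groups did not overlap, beside 3.30% of all genes. Each of the 9 calls was lost in at least 1 fit without a single array (any of controls 1 to 5 or replicates 17 to 20), with adjusted p up to 0.149, and all 15 members stayed positive in each fit in which the list was computed.

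Many genes of class I antigen presentation rose as well. Class I molecules carry peptides, cut by the immunoproteasome and pumped by Tap1, to the cell surface for inspection by T cells. Of 21 members, 11 rose and 0 fell, with a median of 0.76. H2-K1, a heavy chain, read -0.38, 0.58, -0.31, -0.06 and -0.58 in the controls and 1.80, 2.06, 1.12 and 1.83 in the treated arrays, a rise of 1.85 ± 0.32 (adjusted p = 0.00701). H2-D1 rose by 1.28 ± 0.21, H2-Q7 by 1.69 ± 0.28, H2-T10 by 1.45 ± 0.24, H2-T23 by 1.50 ± 0.26 and H2-Q6 by 1.40 ± 0.25. Tap1 rose by 1.32 ± 0.23, from -1.26 to -0.59 in the controls to -0.17 to 0.68. The light chain B2m, the immunoproteasome subunits Psmb9 and Psmb10 and the loading factor Tapbp passed over all arrays but not without at least 1 of controls 1, 3, 4 and 5 or replicates 17, 18 and 20 (adjusted p up to 0.181). Control 2 was the highest control of H2-K1, H2-Q7 and H2-Q6, and without it 13 members rose. Class II genes, the mark of dendritic cells, macrophages and B cells, did not pass: 0 of 10, with a median of 0.53. Cd74, the class II chaperone, read -0.13, 3.09, 0.09, 0.49 and -0.22 in the controls and 1.95, 1.50, 1.85 and 1.47 in the treated arrays, so control 2 lay above every treated array and the other 4 controls below them. Without control 2, 5 of 10 class II genes rose and the median was 0.84.

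**Figure D3:**
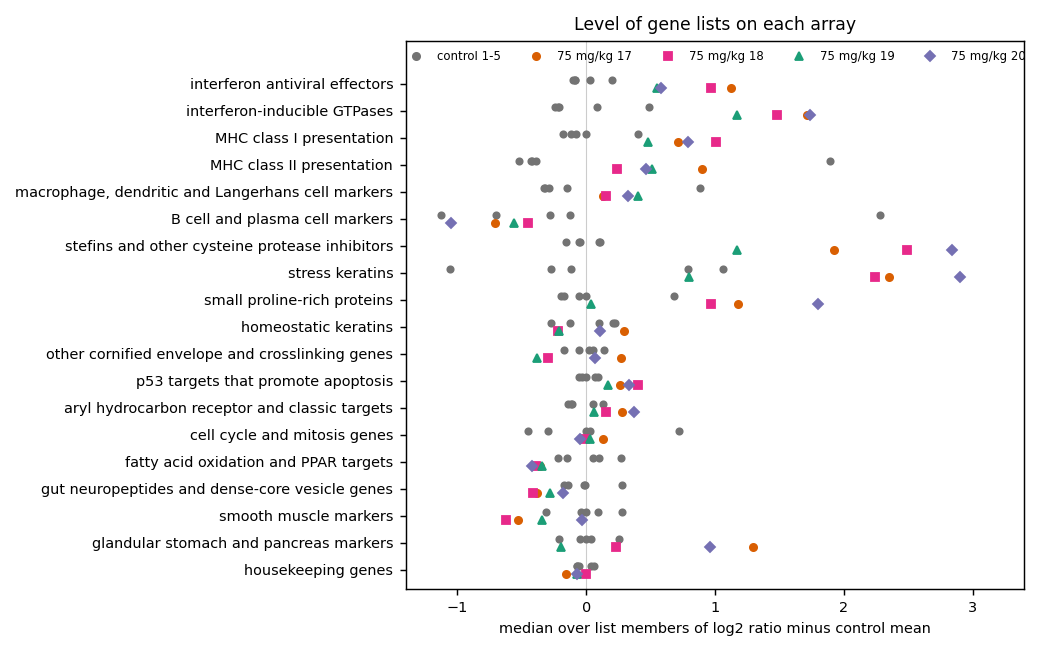
Level of 19 gene lists on each array, as the median over list members of the log2 ratio minus its control mean (horizontal axis). Grey points are the 5 controls and coloured symbols the 4 treated arrays. Treated arrays lie above all controls for the antiviral (0.55 to 1.12), GTPase (1.17 to 1.74) and stefin lists (1.17 to 2.84) and below them for fatty acid oxidation (-0.42 to -0.34), while control 2 lies apart for the B cell (2.28) and class II lists (1.89).

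Chemokines, which draw leukocytes along gradients, had 5 of 23 members higher and 0 lower, with a median of 0.34, where 0.893% of all genes tested rose. Ccl8, which attracts monocytes and other leukocytes, read 1.85, 0.24, 0.77, 0.81 and 0.45 in the controls and 5.30, 4.50, 4.48 and 4.85 in the treated arrays. The treated arrays lay close together, and Ccl8 rose by 3.96 ± 0.40 (adjusted p = 0.000205). Ccl12 rose by 1.49 ± 0.23. Cxcl10 and Cxcl9, ligands of the T cell receptor Cxcr3, rose by 2.14 ± 0.41 and 1.35 ± 0.26, each well above background on 1 of 5 control arrays, while another Cxcl9 probe read 0.67 higher (adjusted p = 0.119 among all probes). Cxcl16 passed as well (0.72 ± 0.17), with control 2 (0.63) above replicate 19 (0.56). The calls of Cxcl9, Cxcl10 and Cxcl16 were lost without at least 1 of controls 1, 3 and 4 or replicates 17, 18 and 20 (adjusted p up to 0.164). Of 14 chemokine receptors, Ccr2, the receptor of monocytes for Ccl12, rose by 0.84 ± 0.18 (adjusted p = 0.0262; up to 0.102 without control 1 or 4 or any 1 of replicates 17 to 20). Without control 2, 3 of these 14 rose.

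Markers of leukocytes were mostly unresolved. Of 23 markers of macrophages, dendritic cells and Langerhans cells, 2 rose and 0 fell, where 0.893% of all genes tested rose. Arg1, which breaks down arginine and is also made in epithelium, read 2.83, 2.43, 1.49, 1.61 and 3.13 in the controls and 4.76, 3.66, 4.39 and 4.78 in the treated arrays, a rise of 2.09 ± 0.40 (adjusted p = 0.0148; up to 0.0655 without replicate 17 or 20), which did not pass with Agilent's processed signals. Cd207, the langerin of Langerhans cells, was at least 1.92-fold higher (adjusted p = 0.0432), a call that was lost without any 1 of controls 1 to 5 or replicates 17, 18 and 20 (adjusted p up to 0.135). Without control 2, 5 of the 23 rose and the median went from 0.25 to 0.59. In the Ms4a family of membrane proteins, Ms4a7, found on macrophages, read -0.37, -0.40, -1.05, -0.76 and -0.67 in the controls and 0.77, 0.78, 0.87 and 0.81 in the treated arrays. That was a rise of 1.45 ± 0.19 (adjusted p = 0.00101), with a treated SD of 0.04. Ms4a6d rose by 0.66 ± 0.14 (adjusted p up to 0.0985 without 1 of controls 1, 3 and 4 or replicates 18 to 20). The mucosal mast cell protease Mcpt1 was at least 1.76-fold higher (adjusted p = 0.035; up to 0.145 without 1 of controls 1, 3, 4 and 5 or replicates 17, 18 and 20). Of 8 B cell and plasma cell markers, 13 T and NK cell markers and 9 neutrophil markers, 0 passed, with medians of -0.67, 0.04 and 0.00. Without control 2 the B cell median was -0.10, and 1 neutrophil marker rose. In the same fit 3 of 7 Ms4a genes and 2 of 19 complement genes rose. Of 19 complement genes, Susd4, a complement regulator, rose by 1.09 ± 0.16 (adjusted p = 0.00242), from 1.07 to 1.47 in the controls to 2.08 to 2.60.

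Targets of p53 rose in part. Of 16 pro-apoptotic targets, 5 rose and 0 fell, with a median of 0.32, where 0.893% of all genes tested rose. Of 26 targets of arrest and feedback, 1 rose (3 with slide as a block) and 0 fell, with a median of 0.08, and the difference between these lists was not tested. Pmaip1 (Noxa), a BH3-only protein, read -2.15, -1.53, -2.05, -1.94 and -2.30 in the controls and -0.80, -1.10, -1.10 and -0.75 in the treated arrays, a rise of 1.06 ± 0.14 (adjusted p = 0.00111). Bbc3 (Puma), another BH3-only protein, rose by 0.80 ± 0.13 (adjusted p = 0.00429), from -1.89 to -1.44 in the controls to -1.22 to -0.61. Trp53inp1 read 0.41, 0.47, 0.43 and 0.47 in the treated arrays against -0.73 to -0.01 in the controls, a rise of 0.83 ± 0.11, while another of its probes differed by 0.21 (adjusted p = 0.559 among all probes). Aen (0.48 ± 0.10) and Bax (0.39 ± 0.09), the pore-forming effector, passed, and both calls were lost in some fits without 1 array, that of Bax in all 9 (adjusted p up to 0.171) and that of Aen without control 3 or 4 or replicate 17, 18 or 20 (up to 0.152). In the 9 other settings Bax kept its call in 1 and Aen in 6. Another Aen probe differed by 0.45 (adjusted p = 0.119 among all probes). Cdkn1a (p21), the inhibitor of cyclin-dependent kinases, read -0.21 to 0.67 in the controls and 0.82, 0.82, 0.36 and 0.90 in the treated arrays (0.39 ± 0.19, adjusted p = 0.522). Another Cdkn1a probe differed by 0.52 ± 0.16 (adjusted p = 0.211 among all probes). Mdm2, the ligase that degrades p53, differed by 0.02 ± 0.14. The 1 other call was Dglucy, at 0.58 ± 0.13 (adjusted p = 0.0466; up to 0.135 without 1 of controls 1, 3, 4 and 5 or replicates 18 to 20).

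For DNA repair, the calls were close in number to the 1.10% of all genes. Of 23 genes of nucleotide excision repair, the pathway that removes bulky adducts, and of bypass polymerases, 0 passed and the median was 0.03. Of 23 other damage response genes, Mgmt, which takes alkyl groups off guanine, rose by 0.79 ± 0.16 (adjusted p = 0.0215; up to 0.0955 without control 4 or replicate 17 or 20). It read -1.27 to -0.76 in the controls and -0.25, -0.47, -0.21 and 0.11 in the treated arrays. Of 35 genes of the cell cycle and mitosis, 0 passed and the median was 0.04. The proliferation marker Mki67 read -2.75, -0.82, -2.74, -3.49 and -3.22 in the controls and -2.14, -2.62, -2.62 and -2.43 in the treated arrays. Control 2 was the highest of all 9 arrays, and without it 1 of the 35 rose and the median was 0.18.

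Enzymes of benzo(a)pyrene metabolism were measured 72 hours after dosing ended, beside a share of 1.10% of all genes that passed. Of 16 genes of the aryl hydrocarbon receptor battery, 2 rose and 0 fell, with a median of 0.20. Cyp1a1, which oxidises benzo(a)pyrene, read 0.53, -0.04, 0.25, 0.80 and 0.14 in the controls and 0.33, 0.67, 0.19 and 1.00 in the treated arrays, so the groups overlapped (0.21 ± 0.18, adjusted p = 0.75), and only 2 arrays of each group were well above background. Cyp1b1 differed by -0.27 ± 0.20 and the repressor Ahrr by 0.35 ± 0.18 (adjusted p = 0.557). The pair that rose were the glutathione transferases Gsta1 (1.34 ± 0.30, adjusted p = 0.035) and Gsta2 (1.09 ± 0.24, adjusted p = 0.0347), which conjugate reactive metabolites. Gsta1 read 3.83, 3.18, 3.36, 3.51 and 4.33 in the controls and 5.39, 5.04, 4.41 and 5.08 in the treated arrays. Gsto1 (0.66 ± 0.15, adjusted p = 0.049) made 3 of 23 glutathione transferases. The 3 calls were lost without at least 1 of controls 1 to 4 or any 1 of replicates 17 to 20 (adjusted p up to 0.183), and with median centring. In the 9 other settings Gsto1 kept its call in 1, Gsta2 in 3 and Gsta1 in 6. Of 27 antioxidant targets of NRF2, Slc7a11, the cystine carrier that feeds glutathione synthesis, rose by 1.27 ± 0.22 (adjusted p = 0.00816), while Nqo1 differed by 0.08 ± 0.13. Of 25 other enzymes of benzo(a)pyrene metabolism, Ugt2b34 and Cyp4b1 fell, by 1.54 ± 0.35 and 1.10 ± 0.26, and 0 rose. Both calls were lost without at least 1 of controls 1 to 5 or replicates 17 to 20 (adjusted p up to 0.184). The letters of the receptor's core site, GCGTG, were in a promoter window of 41 of 111 higher genes (36.9%), among them 2 of the 3 higher glutathione transferases. The share was 18 of 31 (58.1%) for lower genes and 52.3% over all tested genes with a symbol and a window. Such a match is no evidence of binding, its absence from the window is none against it, and the receptor's part was not tested.

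Lists of lipid use and of nerve peptides held 9 of the 38 lower genes with a symbol. They had 5 of 35 and 4 of 18 members lower, beside 0.210% of all genes tested. Of 35 genes of fatty acid oxidation and targets of PPAR, the fatty acid sensors of the nucleus, 5 fell and 0 rose, all 35 had a negative change, and the median was -0.37. With slide as a block 12 fell, and without control 2 8 fell. Angptl4, an inhibitor of lipoprotein lipase, read 0.55, 0.81, 0.77, 1.12 and 0.78 in the controls and -1.41, -1.35, -0.45 and -1.55 in the treated arrays, and fell by 2.00 ± 0.31 (adjusted p = 0.00378). Plin2, which coats lipid droplets, read 0.75, 0.60, 1.19, 1.09 and 1.21 in the controls and 0.21, 0.34, 0.33 and 0.21 in the treated arrays, and fell by 0.70 ± 0.13 (adjusted p = 0.011), a call lost with median centring, with Agilent's processed signals and with only control and 75 mg/kg arrays fitted. Decr1, Acaa1a and Acadm, enzymes of beta-oxidation, fell by 0.96 ± 0.21, 0.47 ± 0.10 and 0.46 ± 0.10, while another Decr1 probe differed by -0.70 (adjusted p = 0.234 among all probes). Their calls were lost without at least 1 of controls 1, 4 and 5 or replicates 17 to 20 (adjusted p up to 0.136). The common sign depended on the scaling: with median centring, where the median of all genes was 0.19, 18 members were negative and 17 positive, the median of the list was 0.00, and 1 member fell. With Agilent's processed signals all 35 were negative and 5 fell. Of 16 adipocyte markers, Adipor2, an adiponectin receptor, fell by 0.69 ± 0.13 (adjusted p = 0.00948), with a list median of -0.55. Its call was lost with median centring, which gave a list median of -0.23. Acsl4, which activates long-chain fatty acids, fell by 0.64 ± 0.13 (adjusted p = 0.0252; up to 0.0856 without control 1 or 4 or replicate 18 or 20).

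Glucose handling changed in single genes. Eno3, the muscle-type enolase, read 1.32, 0.71, 1.06, 1.04 and 0.75 in the controls and -0.57, -0.40, -0.28 and -0.40 in the treated arrays, a fall of 1.39 ± 0.15 with a lower adjusted p than any other named gene that fell (0.000218), though it did not pass with median centring. Slc2a1, the glucose carrier Glut1, rose by 0.50 ± 0.10 (adjusted p = 0.0252; up to 0.105 without 1 of controls 1, 3 and 4 or replicates 17 to 19). The other 19 of 21 glycolysis genes did not pass, nor did any of 30 genes of the respiratory chain, whose median was -0.11.

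Of 18 gut neuropeptide and dense-core vesicle genes, 4 fell and 0 rose, with a median of -0.35. Grp, the gastrin-releasing peptide of enteric nerves, read 3.35, 3.99, 2.81, 3.35 and 3.88 in the controls and 1.06, 1.23, 1.19 and 1.88 in the treated arrays, and fell by 2.14 ± 0.27 (adjusted p = 0.00101). Tac1, which encodes substance P, read 4.54, 3.57, 3.55, 4.30 and 4.13 in the controls and 2.26, 2.38, 2.70 and 3.07 in the treated arrays, and fell by 1.42 ± 0.24 (adjusted p = 0.00701). Cartpt, another neuropeptide precursor, fell by 1.47 ± 0.31 and Scg2, a granin of dense-core vesicles, by 1.05 ± 0.23. Syt1, the calcium sensor of vesicle release, fell by 0.95 ± 0.20 (adjusted p = 0.0245) and was the 1 call among 15 markers of enteric neurons and glia, whose median was -0.27. The calls of Cartpt, Scg2 and Syt1 were lost without at least 1 of controls 1 to 5 or replicates 17 to 19 (adjusted p up to 0.149), and those of Tac1, Cartpt and Scg2 with median centring and with Agilent's processed signals. Beside these, 17 of 17 smooth muscle markers were negative with a median of -0.39, and 0 passed. Their list level was -0.53, -0.62, -0.34 and -0.03 in replicates 17 to 20 and -0.31 to 0.28 in the controls, and with median centring 9 were negative and 8 positive. The part of the muscle and nerve content of the sections in the falls was not tested.

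**Figure D4:**
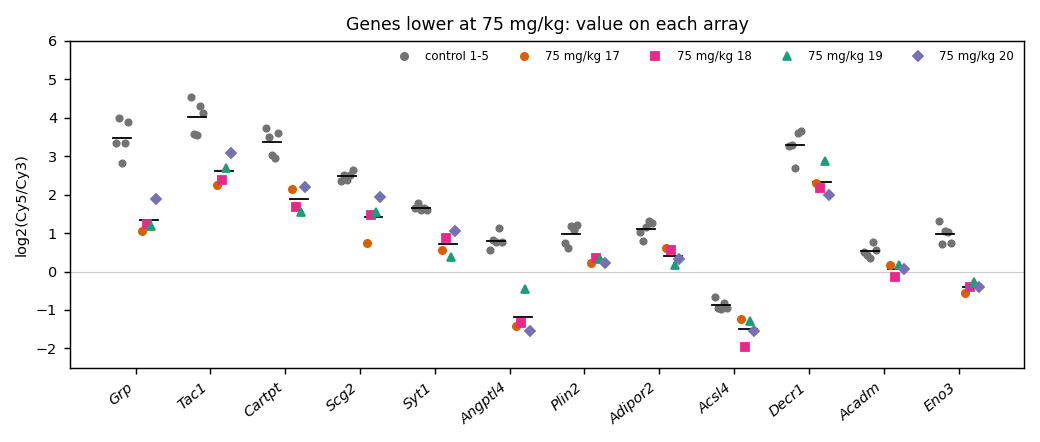
Log2 of Cy5 over Cy3 (vertical axis) on each array for 12 genes that fell at 75 mg/kg, with points spread sideways for legibility. Grey points are the 5 controls, coloured symbols the 4 treated arrays, and black lines the group means. Grp shows 1.06 to 1.88 in the treated arrays against 2.81 to 3.99 in the controls, and Decr1 is the 1 gene shown whose groups overlap, with control 3 at 2.68 below replicate 19 at 2.87.

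Further genes were among the 20 largest falls. Zfp608, a zinc finger gene, read -0.66, -0.82, -0.79 and -0.27 in the treated arrays and -0.16 to 0.26 in the controls, and fell by 0.77 ± 0.13 (adjusted p = 0.00532). Atp1b1, a sodium pump subunit, fell by 1.18 ± 0.26, the lectin Clec2i by 0.99 ± 0.20, the secretoglobin Scgb3a1 by 0.98 ± 0.22, the steroid dehydrogenase Hsd17b14 by 0.79 ± 0.17, and the synaptic cadherin Clstn3 by 0.64 ± 0.14. Pramel13 fell by 1.28 ± 0.29 and Pianp by 1.19 ± 0.27. The calls of these 7 were lost in some fits without 1 array, any of controls 1 to 5 or replicates 17 to 20 (adjusted p up to 0.167), whereas Zfp608 kept its call in all 9. With median centring the calls of Zfp608 and of all 7 were lost. In the 9 other settings these 7 kept their calls in 4 (Scgb3a1) to 7 (Clec2i). The cadherin Cdh3 of the basal layer rose by 0.83 ± 0.19 (adjusted p = 0.0466) and the retinal dehydrogenase Aldh1a3 by 0.88 ± 0.20 (adjusted p = 0.0467). Both were lost without at least 1 of controls 1 to 4 or replicates 17 to 20 (adjusted p up to 0.171). In the 9 other settings Cdh3 kept its call in 1 and Aldh1a3 in 3.

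Markers of neighbouring tissue varied between treated animals. For the 14 glandular stomach and pancreas markers, the list level was 1.29, 0.23, -0.20 and 0.96 in replicates 17 to 20 and -0.21 to 0.25 in the controls, and 0 members passed. Tff1, a trefoil peptide of the glandular stomach, read 0.88, 2.40, 0.08, 2.21 and 5.13 in the controls and 5.96, 3.45, 2.23 and 5.46 in the treated arrays. Replicate 17 was the highest array for the glandular list and replicate 20 for the stefin and stress keratin lists. Replicate 19 was the lowest treated array for all of them, at -0.20, 1.17 and 0.80. The part of glandular tissue in the stefin and stress keratin results was not tested. Housekeeping genes had a median of -0.05, with 0 of 16 passing.

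The lower doses were compared with control in the same way. The comparisons of the 3 doses with control share the control arrays, so their values are set side by side. Over the 191 higher genes the median difference from control was 0.38, 0.74 and 1.16 at 25, 50 and 75 mg/kg, and over the 45 lower genes -0.12, -0.37 and -0.69, the genes having been chosen on the last value of each. At 50 mg/kg 10 genes (0.0468%) passed against control and at 25 mg/kg 3 genes (0.0140%), all of them among the 236. The 10 were Ccl8, Oas1a, Bst2, Ifih1, Nlrc5, Trp53inp1, Ms4a7, Susd4, Eno3 and Fgf9, a growth factor named after its values were seen, and Ccl8, Susd4 and Fgf9 also passed at 25 mg/kg. Ccl8 differed by 2.66, 3.67 and 3.96 at the 3 doses. Susd4 differed by 1.05, 1.00 and 1.09 and Fgf9 by 1.39, 1.45 and 1.64. Zfp608 differed by 0.16, 0.02 and -0.77.

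Tested directly, 13 genes (0.0608%) differed between 75 and 25 mg/kg. Among the named genes these were Grp and Zfp608 (adjusted p = 0.0176 each), Chil4 (adjusted p = 0.0192), and Defb3, Stfa2l1 and Eno3 (adjusted p = 0.0302 each). Stfa1 did not pass there (4.70 ± 0.90, adjusted p = 0.075). Between 75 and 50 mg/kg 0 genes passed by limma (0%), with 587 at an unadjusted p under 0.05, and no second tool was run on this comparison. At 75, 50 and 25 mg/kg against control the unadjusted counts were 2153, 1456 and 697.

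**Figure D5:**
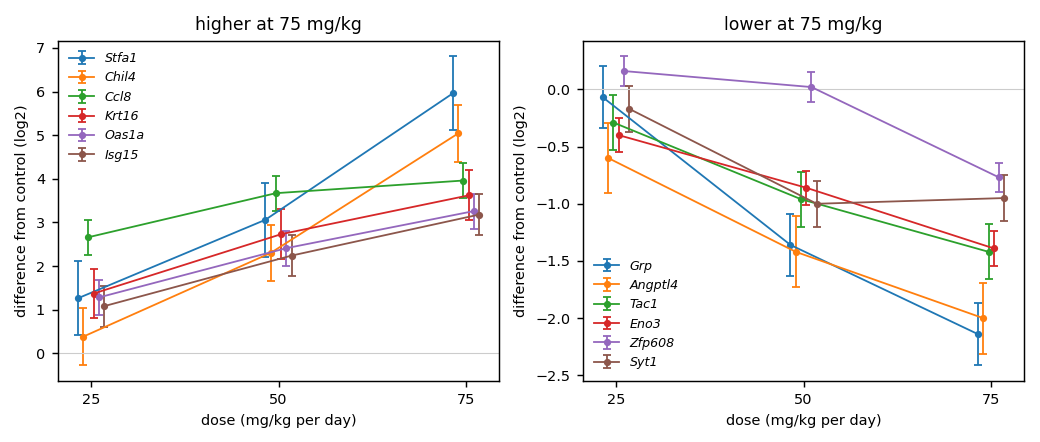
Difference from control (log2, vertical axis) at 25, 50 and 75 mg/kg per day (horizontal axis, points offset sideways) for 6 genes that rose and 6 that fell at 75 mg/kg. Bars are standard errors of the fit, all 3 doses share the control arrays, and the values of Chil4 rest on controls not well above background. Ccl8 goes from 2.66 to 3.96 and Stfa1 from 1.26 to 5.96, whereas Zfp608 is at 0.16 and 0.02 at the lower doses and at -0.77 at 75 mg/kg.

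Across the 9 arrays, the genes closest in pattern to Stfa1 by Pearson's r were Grip1 (0.992), Defb3 (0.990), Serpinb3c (0.981), Chil4 (0.978) and Gm5476 (0.977). Closest to Ccl8 were F3 (0.965), Grip1 (0.961), Fgf9 (0.959), Mtarc2 (0.956) and Serpinb3a (0.955). For Angptl4 they were Slc5a3 (0.949), Rab4a (0.946), Tmem179 (0.945), Eno3 (0.930) and Pianp (0.919). These values describe arrays that fall into the 2 groups and share slides, and the difference between the groups alone gives high values. Grip1, a scaffold protein named here after its values were seen, had the smallest adjusted p of all genes (8.03e-05) at 1.70 ± 0.15.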

How the data were processed

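Gene expression was measured on 2-colour Agilent arrays. Per the file headers, Feature Extraction 10.7.3.1 wrote the deposited spot and background intensity values. The authors also deposited a series table of log2 values of unstated scale, which followed the loess ratio without background correction (r 0.998 to 0.999, slope 0.995 to 0.998, column medians -0.03 to -0.02, direction Cy5 over Cy3). Dyes were not swapped.

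Median signals were corrected with normexp (offset 50) and normalized by loess. Control spots and outlier flags were left out and the spots of a probe averaged. Kept were the 27574 probes whose Cy5 signal stood well above background on 4 or more arrays, and the brightest represented each gene (21382, of which 13854 had a symbol through RefSeq transcripts). limma 3.58.1 in R 4.3.3 (lmFit, eBayes) fitted all 17 arrays with 4 group means. Tests were two-sided with Benjamini-Hochberg adjustment over all genes, and the steps were tested on simulated data. For probes below that level on all arrays of a group the fold is given as a lower bound where one could be set, which was not so for Chil4 and Tchh, from Cy5 after loess and Aquantile and open to dye bias.

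The 55 gene lists and the members were chosen with earlier results of these data known. Genes were named as the 20 largest changes each way among called, non-overlapping genes with a symbol, all called list members, up to 4 members of lists with at most 1 call, and 9 sentinel genes. Alternatives covered slide, background, scaling, signal column, filter, probe choice and each array left out. The protocol gives n = 5 per group, and 4 arrays at each dose were analysed here. 1 gene of the lists is counted but not reported here by name.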

Additional observations from a re-analysis of the deposited data

Results flagged for a closer look

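In 334 groups of 4 or 5 values (each named gene that passed and each gene list, in the controls and in the treated arrays), 18 held an array far from the rest by Dixon's ratio. Chance gives about 1 in 20, so the total is close to that of chance, and the flags are listed as descriptions only. Named genes recur in the lists, so the groups are not independent. Control 2 accounted for 11 of the 18. It was the highest control for Isg15 (-0.41, others -2.28 to -1.75), Bst2 (-1.69, others -2.18 to -2.14), Irf9 (0.65, others -0.31 to -0.05), Gbp3 (0.45, others -0.79 to -0.46) and H2-Q7 (0.53, others -0.15 to -0.04). Control 2 was also highest over the lists of nucleic acid sensors (0.29), MHC class II (1.89), macrophage and dendritic cell markers (0.88) and neutrophil markers (0.36). It was the lowest control for Zfp608 (-0.16, others 0.14 to 0.26) and Serpinb3b (0.35, others 0.73 to 0.83).

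The other controls set apart were control 5 for Iigp1 (-0.06, others 0.36 to 0.41) and for the small proline-rich list (0.68, others -0.20 to 0.00), and control 1 for S100a7a (-0.43, others -0.11 to 0.01). Among the treated arrays, replicate 18 was high for Ifit3b (1.60, others 0.54 to 0.59) and replicate 19 low for Ifi35 (-0.17, others 0.50 to 0.54). Replicate 20 was low for the excision repair list (-0.04, others 0.05 to 0.06), and replicate 17 for striated muscle markers (-0.58, others -0.28 to -0.22).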

How the results depend on the processing

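The 191 higher and 45 lower genes became 330 and 94 with slide as a block. The lower count was 3 with median centring, 25 with Agilent's processed signals and 17 with only control and 75 mg/kg arrays fitted, where the higher counts were 142, 159 and 138. Leaving out 1 array gave 100 to 241 higher and 16 to 50 lower genes. Of the 236 calls, 236 were kept with the slide block, 124 with median centring, 153 with processed signals, 140 with the 2 groups alone and 115 to 202 without 1 array. The sign turned for 1 of the 236, with median centring. Of 112 named genes that passed, 48 kept their call in all 9 fits without 1 array and 40 of these also in all 9 other settings, and none of the 112 changed sign. Settings without background correction, with the series table, with no filter on dim probes, with every probe on its own or with Cy5 alone kept both counts within 1.5 times. No paired analysis was possible because the groups share no replicate numbers, and slide was the block used instead. Precision is limited by 4 against 5 arrays and, for 13 of the higher genes, by signals that were well above background in none of the controls. Of the 191 higher genes, 143 were well above background on all 9 arrays, and the others were not on at least 1.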
